A study of Mus musculus with 6 samples.

Results

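Rab and Arf GTPases, with the coats, tethers, sorting complexes and fusion proteins that they recruit, were measured as mRNA in a pair of related mouse ovarian cancer cell lines. The members were chosen by gene name, with a pattern that takes Rab, Arf and Arl genes, their regulators, sorting nexins, Vps genes, syntaxins and other SNAREs, synaptotagmins, the exocyst, COPI and COPII coats, TRAPP, clathrin and its adaptors, caveolins, EHD proteins, late ESCRT genes, lysosomal membrane proteins and the vacuolar proton pump. The deposited table lists 7320 genes, and 167 matched, of which 166 are protein-coding and 1, Rab26os, is an antisense RNA. Names in a reference list of mouse genes matched 410 protein-coding genes. The table holds 166 of them, or 40.5%, beside 29.6% of all 21900 protein-coding genes on that list, which were not filtered for expression. Every gene in the table had already been called different between the lines by the authors, at an adjusted p-value under 0.05, so neither the number of calls nor their absence tells how much of the trafficking machinery changed.

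ID8 cells are a clonal line that arose when mouse ovarian epithelial cells of the C57Bl6 strain became immortal in culture, with no engineered oncogene. KMF cells, which the labels also call ID8-IP, were recovered from the ascites of C57Bl6 mice that carried ID8 tumours and were expanded without anchorage. Neither line received a treatment, and both were grown for 5 days as tumorspheres, floating cell clusters in serum-free PromoCell XF medium. Each line gave 3 RNA samples, described as independent and taken at different passages, namely 23, 24 and 35 for ID8 and 14, 17 and 22 for KMF. Every KMF passage was lower than every ID8 passage, so passage and line cannot be told apart, and each line is a single isolate. The p-values therefore measure the spread between samples of 1 line at different passages.

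Library totals ran from 23108407 to 33212313 fragments on genes, and the members took 1.27% to 1.28% of them in ID8 and 1.34% to 1.39% in KMF. Of 10 markers of ovarian surface epithelium 6 were in the table and 5 could be fitted, of which Msln rose in KMF and Krt7, Wt1, Upk3b and Cdh1 fell. Cdh1, the epithelial cadherin, had 9.69, 10.9 and 5.29 FPKM, that is, fragments scaled to gene length and library total, in ID8 and 0.900, 0.801 and 0.476 in KMF. None of 8 leukocyte markers, none of 3 erythroid markers and 2 of 5 endothelial markers were in the table, with Kdr and Tie1 at no more than 0.174 FPKM in any library. Levels of markers outside the table were not analysed here. In bulk RNA, fewer cells with a transcript and less of it per cell cannot be told apart.

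Rab proteins are small GTPases that switch between a GTP-bound form on a membrane and a GDP-bound form in the cytosol. Exchange factors such as DENN and RIN proteins load them with GTP, TBC-domain proteins make them hydrolyse it, and effectors read the active form to move, tether or fuse a vesicle. Arf GTPases work in a similar cycle and recruit coats, SNARE proteins drive the fusion itself, and in epithelial cells these proteins sort cargo between the apical, basolateral, recycling and lysosomal routes.

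Of the 167 members 166 could be fitted, and 154 of these passed an adjusted p of 0.05 in edgeR's quasi-likelihood test with Benjamini-Hochberg adjustment, the source of all adjusted p-values here. That was 92.8% of fitted members, beside 92.9% of all fitted genes of the table. Among members 72 were higher and 82 lower in KMF, which is 43.4% and 49.4%, beside 45.4% and 47.5% of all fitted genes. In 162 members (97.6%, beside 96.6% of all fitted genes) the 3 libraries of one line did not overlap those of the other. The share called therefore lay at the level of the table as a whole.

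The sizes of the changes were smaller than in the rest of the table. A change of at least 2-fold was called in 41 members, 24.7% of those fitted, beside 40.5% of all fitted genes. Of these members 18 were higher and 23 lower, or 10.8% and 13.9%, beside 18% and 22.5%. The median size of the log2 fold change was 0.57 in members and 0.79 in all fitted genes. Members were also more abundant, with a median level of 17.0 FPKM against 9.93. When all fitted genes were split by mean level into 3 bins of equal size, a change of at least 2-fold was called in 55.9% of 34 members in the lowest bin, against 72.6% of all genes there. In the middle bin it was 24.1% of 54 members against 28.6%, and in the highest bin 11.5% of 78 members against 20.2%. Of the 41 large changes 19 were thus in the lowest bin, and in each bin the share in members was below that of the table.

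**Figure D1:**
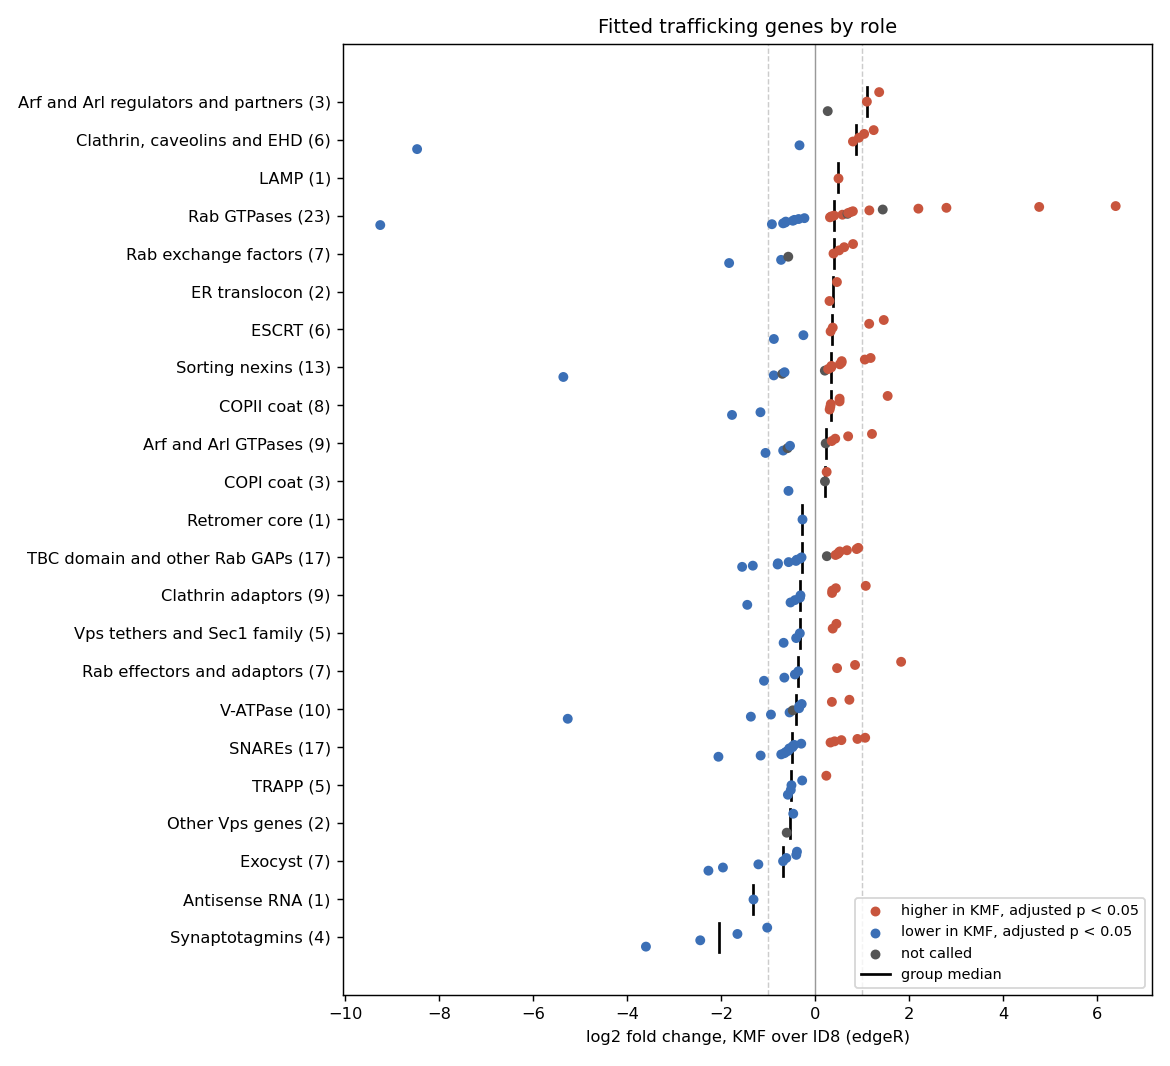
Log2 fold change of KMF over ID8 (x axis) for each fitted member, grouped by role (y axis, number of genes in brackets). Points are genes, coloured by direction where the adjusted p was under 0.05, black bars are group medians and dashed lines mark a 2-fold change. All 7 listed exocyst and Exoc3-like genes and all 4 synaptotagmins lie to the left of 0, and most changes lie inside the dashed lines.

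Among 23 Rab GTPases 12 were higher and 9 lower in KMF, and Rab32 and Rab4b did not pass the test. The median log2 fold change of the Rab genes was 0.40. When any 1 library was left out the number higher was between 10 and 13, and the number lower between 5 and 6, and 5 were lower with the replicate number as a block. The largest called rises were those of Rab44, Rab17, Rab27a and Rab37, and the largest fall was that of Rab38. Rab4b had a log2 fold change of 1.44 (adjusted p = 0.0506).

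Rab27a (ENSMUSG00000032202, chr9:73044854-73097629 on GRCm38, plus strand) docks secretory lysosomes and multivesicular endosomes at the plasma membrane. Its level was 2.14, 2.52 and 4.35 FPKM in ID8 replicates 1 to 3 and 18.4, 20.9 and 21.2 in KMF replicates 1 to 3. The libraries of the lines did not overlap, and ID8 replicate 3, of the latest passage, was the highest of its line. The log2 fold change was 2.79 ± 0.24 (SE), a 6.92-fold rise (adjusted p = 0.000105). Rab17 (ENSMUSG00000026304, chr1:90958133-90969661, minus strand), an epithelial Rab of apical recycling and transcytosis, had 0.315, 0.339 and 1.02 FPKM in ID8 and 10.4, 15.8 and 17.9 in KMF. It was close to absent in ID8, where its counts were 17, 15 and 48, and the lowest KMF library lay well above the highest ID8 library. The log2 fold change was 4.76 ± 0.43 (adjusted p = 0.000121), and 5.52 without ID8 replicate 3.

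Rab3d (chr9:21907491-21918192, minus strand), a Rab of regulated exocytosis in exocrine cells, had 14.6, 14.8 and 17.1 FPKM in ID8 and 34.5, 38.3 and 27.7 in KMF. The lines did not overlap, and the log2 fold change was 1.15 ± 0.13 (adjusted p = 0.000379). Rab37, found on secretory granules, stayed low in both lines, at 0.0390, 0.0794 and 0.0896 FPKM in ID8 and 0.341, 0.431 and 0.173 in KMF. Its log2 fold change of 2.19 ± 0.53 (adjusted p = 0.0132) rested on 3 to 26 counts per library. Rab44 (chr17:29135056-29148980, plus strand), a large Rab with an added calcium-binding region, had 0, 2 and 0 counts in ID8 and 57, 54 and 87 in KMF. The ratio of KMF to ID8 over the line totals was 98.2, with an exact interval from 26.8 to 817 that covers counting error only.

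Sytl1 and Sytl2, Rab27 effectors that the name pattern takes, moved the same way as Rab27a, and no full list of Rab27 effectors was read. Sytl1 (chr4:133253090-133263113, minus strand), a synaptotagmin-like protein that binds active Rab27, had 4.89, 5.22 and 4.49 FPKM in ID8 and 15.2, 16.9 and 18.3 in KMF. That was a log2 fold change of 1.83 ± 0.12 (adjusted p = 3.18e-05), with no overlap between lines. Sytl2, its more abundant relative, rose from 25.2, 29.8 and 34.2 FPKM to 37.8, 41.2 and 40.6, a log2 fold change of 0.46 ± 0.11 (adjusted p = 0.0125). Rab27a, Rab3d, Rab37, Rab44 and these 2 effectors thus all rose, but this set of 6 was put together with their changes known.

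Rab38 (ENSMUSG00000030559, chr7:88430273-88491466, plus strand), a Rab of melanosomes and other lysosome-related organelles, had 2.01, 1.69 and 2.25 FPKM in ID8. No KMF library had a count of it, against 87, 60 and 85 counts in ID8. Taking 3 counts over the KMF line as the limit that a count of 0 allows, Rab38 was at least 77.9-fold lower in KMF. Its close relative Rab32 was at 6.60, 8.23 and 3.68 FPKM in ID8 and 13.1, 7.94 and 7.97 in KMF. The Rab32 libraries of the lines overlapped, and its log2 fold change of 0.69 ± 0.32 did not pass the test (adjusted p = 0.169).

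**Figure D2:**
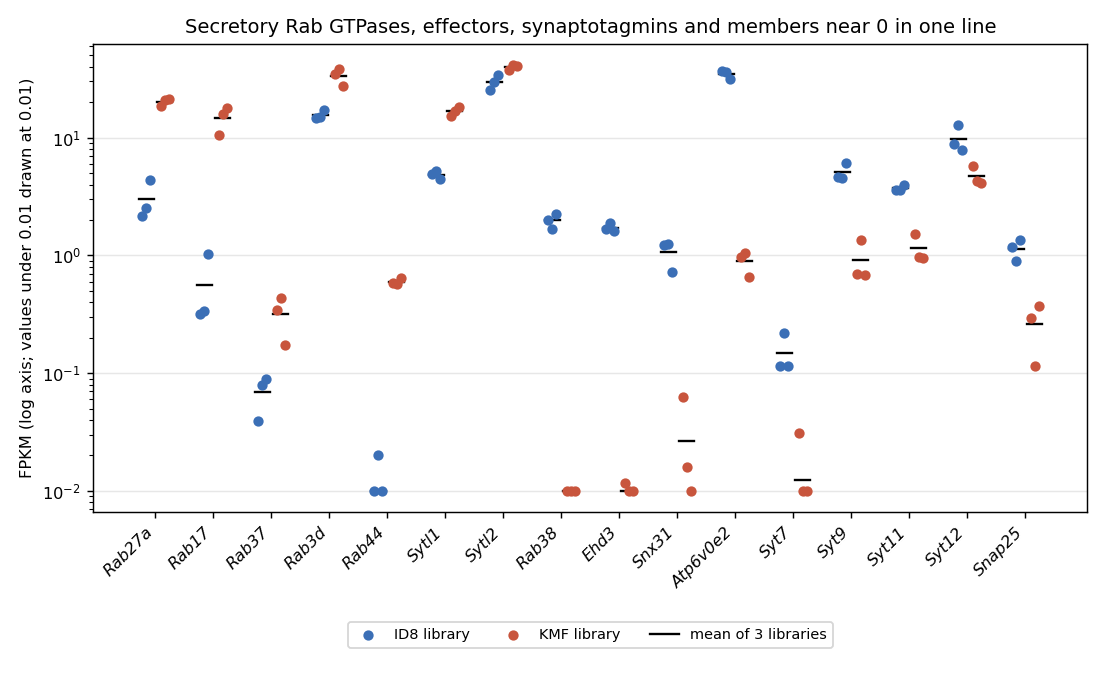
FPKM in each library (y axis, log scale, values under 0.01 drawn at 0.01) of secretory Rabs, Rab27 effectors, synaptotagmins and members near 0 in a line (x axis). Points are libraries, 3 per line, and black bars are means. Rab17 rises from at most 1.02 FPKM to at least 10.4, while Rab38 has no counts in KMF and Atp6v0e2 falls from at least 31.4 FPKM to at most 1.04.

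Rab5c, an early endosome Rab and the Rab member with the highest level, was at 120, 118 and 135 FPKM in ID8 and 107, 100 and 102 in KMF, a log2 fold change of -0.23 ± 0.07 (adjusted p = 0.0435). This call was lost whichever library was left out, with adjusted p from 0.0616 to 0.217. Rab4a, which returns receptors to the surface, fell by 0.63 on the log2 scale, and Rab9, which links late endosomes to the Golgi, fell by 0.35. Rab21 and Rab31, Rabs of endosomal sorting, rose by 0.70 and 0.75. Rab24, linked to autophagy, rose by 0.80, but 1258 bases of its exons overlap Prelid1 on the opposite strand, and whether counting used strand is not given in the sources used here.

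The Rab6 pair of the Golgi moved apart. Rab6a, the ubiquitous form, had 42.3, 43.7 and 41.5 FPKM in ID8 and 49.1, 53.2 and 51.8 in KMF (log2 fold change 0.31 ± 0.07, adjusted p = 0.00837, and 0.0525 with upper quartile scaling). Rab6b, the form abundant in neurons, had 9.75, 11.1 and 10.1 FPKM in ID8 and 5.58, 6.64 and 6.49 in KMF (log2 fold change -0.68 ± 0.10, adjusted p = 0.00126). Rab6b made up 19.5% ± 0.737 (SD, n = 3) of the summed FPKM of the pair in ID8 and 10.8% ± 0.524 in KMF. Rab6a shares 708 exonic bases with Mrpl48 on the opposite strand.

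The proteins that switch Rabs on and off also moved in both directions. Of 7 exchange factors 4 rose and 2 fell, with 2 to 4 higher when a library was left out. Dennd2a (chr6:39462378-39557867, minus strand), a DENN-domain exchange factor for Rab9, had 10.03, 9.80 and 8.63 FPKM in ID8 and 2.96, 1.91 and 2.89 in KMF, a log2 fold change of -1.83 ± 0.18 (adjusted p = 0.00016). Dennd2c, its paralog, had 1.10, 1.22 and 1.15 FPKM in ID8 and 1.56, 1.63 and 1.98 in KMF, a log2 fold change of 0.61 ± 0.16 (adjusted p = 0.0191). The Dennd2c call was lost without ID8 replicate 1 (adjusted p = 0.0783) and without KMF replicate 3 (0.0679). Dennd3, which activates Rab12, rose by 0.80.

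The RIN proteins activate Rab5 on endosomes, and the 3 of them split. Rin2 fell from 15.9, 15.3 and 13.5 FPKM to 8.98, 8.21 and 9.13 (log2 fold change -0.73 ± 0.09, adjusted p = 0.000614). Rin1 went from 18.3, 20.3 and 18.4 FPKM to 26.8, 23.5 and 22.3 (log2 fold change 0.39 ± 0.10, adjusted p = 0.0157, and 0.0667 without ID8 replicate 1). Rin3 went from 8.03, 8.39 and 7.70 FPKM to 11.4, 10.1 and 11.9 (log2 fold change 0.51 ± 0.09, adjusted p = 0.00369). In FPKM, Rin3 was the lowest of the 3 in every ID8 library and Rin2 in every KMF library.

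Among 17 TBC-domain and other GTPase-activating proteins 7 rose and 9 fell, with a median log2 fold change of -0.29 and 6 to 8 lower when a library was left out. Tbc1d16 (chr11:119143045-119228499, minus strand), which inactivates Rab4, showed the largest fall, from 45.3, 37.5 and 54.3 FPKM to 9.67, 18.8 and 16.8. The lines did not overlap, and its log2 fold change was -1.56 ± 0.24 (adjusted p = 0.00157). Tbc1d2 (Armus), which inactivates Rab7, had 0.668, 0.739 and 0.831 FPKM in ID8 and 1.47, 1.21 and 1.42 in KMF (log2 fold change 0.92 ± 0.19, adjusted p = 0.00644). Tbc1d2b, the most abundant of them in KMF but below Tbc1d16 in ID8, went from 24.0, 23.7 and 26.1 FPKM to 36.99, 42.2 and 35.2 (log2 fold change 0.67 ± 0.09, adjusted p = 0.00076).

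The Rab11 family-interacting proteins, effectors of recycling endosomes, also split. Rab11fip5 rose from 32.7, 34.0 and 33.2 FPKM to 65.6, 55.4 and 53.7 (log2 fold change 0.85 ± 0.09, adjusted p = 0.000343). Rab11fip2 fell from 9.16, 8.25 and 9.23 FPKM to 4.32, 4.12 and 3.72 (log2 fold change -1.09 ± 0.10, adjusted p = 0.000121). Rab11fip1 (Rab-coupling protein) fell by 0.66, and Rab11fip4 was too low to fit, with 26, 28 and 4 counts in ID8 and 2, 0 and 5 in KMF. Rabep1 and Rabep2, the rabaptins that bind Rab5, fell by 0.43 and 0.36.

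Of 9 Arf and Arl GTPases 4 rose, 3 fell, and Arf1 and Arl4a did not pass. Arl4c (chr1:88673125-88702221, minus strand), a plasma membrane Arl that recruits Arf6 exchange factors, rose from 9.61, 9.81 and 9.53 FPKM to 24.2, 19.7 and 21.1 (log2 fold change 1.21 ± 0.10, adjusted p = 6.95e-05). Arl3 (chr19:46531109-46573085, minus strand), which delivers lipidated proteins to the cilium, fell from 127, 116 and 143 FPKM to 59.3, 61.8 and 59.4 (log2 fold change -1.06 ± 0.09, adjusted p = 7.86e-05). Arl6, another ciliary Arl, fell by 0.68 and Arl2, a regulator of tubulin folding and relative of Arl3, by 0.54. Arf4 of the Golgi and Arf6 of the cell surface rose by 0.42 and 0.35. Arf1, which recruits COPI and had 220 to 275 FPKM in all libraries, had a log2 fold change of 0.22 ± 0.08 (adjusted p = 0.0666).

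Both called Arf partners rose. Arl6ip1, a membrane-shaping protein of the endoplasmic reticulum, rose from 65.1, 65.9 and 67.3 FPKM to 160, 155 and 181 (log2 fold change 1.36 ± 0.08, adjusted p = 2.03e-05). Arfgap3, which triggers GTP hydrolysis on Golgi Arf1, rose from 21.1, 20.6 and 22.1 FPKM to 39.7, 48.2 and 45.1 (log2 fold change 1.10 ± 0.09, adjusted p = 6.83e-05). Arfgap1, of the same activity, had a log2 fold change of 0.26 ± 0.10 (adjusted p = 0.0717).

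The COPII coat carries cargo out of the endoplasmic reticulum, and 6 of its 8 listed genes rose. These were Sec24d, Sec24b, Sec24c, Sec31a, Sec23b and the coat-binding Sec23ip, with log2 fold changes from 0.31 to 1.54, and 4 to 6 of the coat genes were called higher when a library was left out. With upper quartile scaling 3 of the 6 stayed called, and the median log2 fold change of all 8 went from 0.33 to 0.21. Sec24d (ENSMUSG00000039234, chr3:123267496-123365635, plus strand), a cargo-binding subunit, rose from 9.53, 11.7 and 9.12 FPKM to 24.2, 30.5 and 31.3. The log2 fold change was 1.54 ± 0.14, a 2.91-fold rise (adjusted p = 0.000114), and the lines did not overlap. Sec31a, the outer coat subunit and the most abundant COPII member, rose from 60.7, 58.4 and 52.6 FPKM to 76.8, 81.4 and 81.0 (log2 fold change 0.52 ± 0.08, adjusted p = 0.00156).

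The remaining 2 COPII members, both at low levels, moved the other way. Sec31b, at 0.525, 0.400 and 0.692 FPKM in ID8, had 0.0754, 0.275 and 0.115 in KMF (log2 fold change -1.77 ± 0.47, adjusted p = 0.0201). Its adjusted p was 0.0582, 0.0517, 0.0592 and 0.0856 without ID8 replicate 1, ID8 replicate 3, KMF replicate 1 and KMF replicate 3, and its log2 fold change was -2.41 without KMF replicate 2. Sec16b, a shorter form of the scaffold of the exit sites, had 1.04, 1.14 and 0.844 FPKM in ID8 and 0.282, 0.575 and 0.452 in KMF, a log2 fold change of -1.17 ± 0.29 (adjusted p = 0.0157). Both were far below Sec31a in FPKM in every library, and neither was called without ID8 replicate 1.

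In the COPI coat, which returns cargo from the Golgi, Copb1 had 49.4, 53.7 and 50.03 FPKM in ID8 and 55.8, 61.2 and 59.3 in KMF, a log2 fold change of 0.24 ± 0.07 (adjusted p = 0.0355). This small difference was lost in 11 of 16 alternatives, with adjusted p up to 0.29, among them without ID8 replicates 1 and 3 and without KMF replicates 2 and 3. Copb2 did not pass (log2 fold change 0.21 ± 0.08, adjusted p = 0.0691). Copg2 fell from 21.5, 21.1 and 21.1 FPKM to 14.6, 13.01 and 14.2 (log2 fold change -0.57 ± 0.07, adjusted p = 0.000627), with 912 exonic bases that overlap the imprinted gene Mest on the opposite strand. In the translocon that feeds proteins into the endoplasmic reticulum, Sec61g rose by 0.46 (adjusted p = 0.00342). Sec61a1 was higher by 0.30 (adjusted p = 0.0441), a call lost in 11 of 16 alternatives with adjusted p up to 0.226.

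Coat genes are known targets of the unfolded protein response, whose factors XBP1 and ATF6 read the letters TGACGTGG. In a RefSeq table of promoter windows on GRCm38.p6, from 250 bases before to 50 bases after each start, 129 members had a window. The letters TGACGTGG on either strand were in windows of 6 of these members, or 4.65%. Of all 27025 genes with a window, not filtered for expression or gene type, 0.714% held them (0.676% of all 32851 windows). The letters were in 4 of the 11 COPI and COPII members with a window, namely Sec24d, Sec16b, Copb1 and Copb2, and also in Arf1 and Ap5z1. Of the 6 genes 2 were higher, 2 lower and 2 did not pass. The windows of Sec24d (chr3:123267246-123267545, plus strand) and Copb1 (chr7:114254631-114254930, minus strand) are shown because the letters, here in capitals, stand 26 and 28 bases before the start, on the reverse strand in Copb1.
Sec24d: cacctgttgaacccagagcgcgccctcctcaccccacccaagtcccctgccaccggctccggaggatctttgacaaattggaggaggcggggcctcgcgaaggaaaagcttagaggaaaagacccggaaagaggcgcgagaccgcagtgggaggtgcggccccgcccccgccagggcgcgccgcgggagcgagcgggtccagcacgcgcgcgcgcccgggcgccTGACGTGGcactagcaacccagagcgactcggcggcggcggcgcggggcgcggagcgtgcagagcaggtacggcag
Copb1: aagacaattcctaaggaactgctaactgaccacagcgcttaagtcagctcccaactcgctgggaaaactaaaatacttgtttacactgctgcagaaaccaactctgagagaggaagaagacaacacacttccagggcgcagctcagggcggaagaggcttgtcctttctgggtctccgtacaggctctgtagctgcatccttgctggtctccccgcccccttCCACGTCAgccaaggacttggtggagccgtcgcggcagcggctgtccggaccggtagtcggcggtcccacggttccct

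The exocyst tethers secretory vesicles to the plasma membrane. All 7 listed genes of this group, 4 core subunits and 3 Exoc3-like relatives, fell in KMF (median log2 fold change -0.69). Without ID8 replicate 1 the number was 6, and without each of the other libraries it was 7. The core subunits Exoc3, Exoc4, Exoc6 and Exoc8 fell by 0.39 to 0.69 on the log2 scale, with adjusted p from 0.000307 to 0.00962. Exoc4 (Sec8), the most abundant of them, went from 44.1, 48.2 and 42.5 FPKM to 34.7, 30.4 and 35.0, and Exoc6 went from 17.7, 17.2 and 17.7 to 10.4, 10.4 and 11.02. In each of these core subunits the 3 KMF libraries lay below the 3 ID8 libraries. Core subunits that are not listed were not analysed here, so the fall is not shown for the whole complex.

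The 3 Exoc3-like genes, relatives of a core subunit, fell further and from lower levels. Exoc3l2 had 1.88, 1.68 and 4.64 FPKM in ID8 and 0.848, 0.452 and 0.356 in KMF, a log2 fold change of -2.27 ± 0.50 (adjusted p = 0.00847), and -1.67 without ID8 replicate 3. Exoc3l4 had 1.68, 1.67 and 0.640 FPKM in ID8 and 0.305, 0.178 and 0.495 in KMF, a log2 fold change of -1.96 ± 0.49 (adjusted p = 0.0146, and 0.056 without ID8 replicate 1). Exoc3l fell by 1.21 (adjusted p = 0.00679). Exoc3l and Exoc3l4 overlap antisense genes by 531 and 888 exonic bases.

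**Figure D3:**
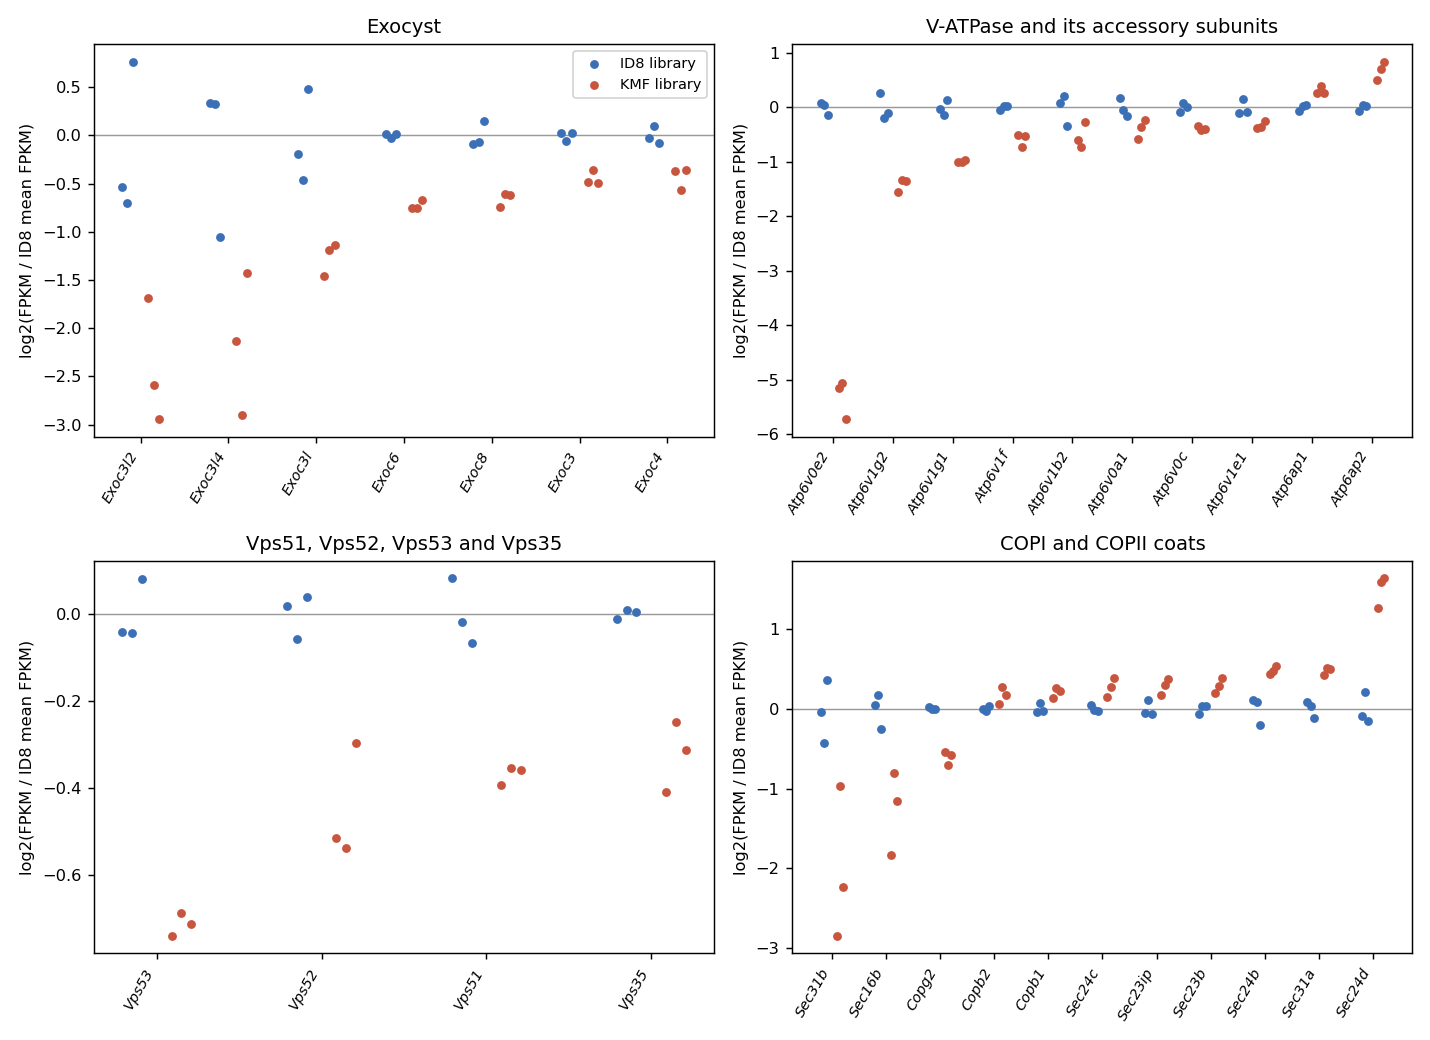
Level of each gene in each library as log2 of its FPKM over the ID8 mean (y axis, scale differs between panels) for the exocyst, the V-ATPase, the Vps51, Vps52, Vps53 and Vps35 genes and the COPI and COPII coats. Points are libraries, 3 per line. All listed exocyst and Exoc3-like genes lie below 0 in KMF, and most coat genes rise. Of 8 pump subunits 7 are called lower, without Atp6v1b2, while Atp6ap1 and Atp6ap2 rise.

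The other tethers were mostly lower too. Vps51, Vps52 and Vps53, subunits of the GARP and EARP tethers that receive endosome-derived carriers, fell by 0.33, 0.41 and 0.67. Vps51 shares 532 exonic bases with Tm7sf2 on the same strand. Vps53 went from 23.4, 23.4 and 25.5 FPKM to 14.4, 14.95 and 14.7 (log2 fold change -0.67 ± 0.07, adjusted p = 0.000266). Of 5 TRAPP genes, whose complex tethers vesicles at the Golgi, 4 were lower and Trappc8 higher. Trappc6a went from 39.5, 39.8 and 54.7 FPKM to 28.3, 27.4 and 31.2 (log2 fold change -0.58 ± 0.14, adjusted p = 0.0115, and 0.0587 without KMF replicate 2), and Trappc9 fell by 0.52. Between 2 and 4 TRAPP genes were called lower when a library was left out. The calls of Trappc8 (log2 fold change 0.23, adjusted p = 0.0471) and Trappc1 (log2 fold change -0.28, adjusted p = 0.0359) were lost in 13 and 6 of 16 alternatives.

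Vps8 and Vps16, subunits of the endosomal CORVET and HOPS tethers, were higher. Vps16 had 12.7, 11.1 and 15.04 FPKM in ID8 and 14.5, 18.4 and 18.7 in KMF, so that the lines overlapped, and its log2 fold change was 0.45 ± 0.13 (adjusted p = 0.031). The number of higher genes among these tethers fell from 2 to 0 without ID8 replicate 1, ID8 replicate 2 or KMF replicate 2, and with upper quartile scaling, a minimum of 10 counts or limma at either pseudocount. It was 1 without KMF replicate 3, with library totals alone and with the replicate block. The Vps16 call was lost in 9 of 16 alternatives, with adjusted p up to 0.104. Vps13a, a lipid transfer protein at membrane contacts, fell by 0.47 (adjusted p = 0.00299).

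SNARE proteins were lower more often than higher. Of 17 SNARE genes 12 fell and 5 rose, with a median log2 fold change of -0.49, and 9 to 11 were called lower when a library was left out. The number called higher was 3 with upper quartile scaling and 3 to 5 without a library. Of 7 syntaxins 6 fell, and Stx2, a plasma membrane syntaxin, rose from 6.49, 6.53 and 6.76 FPKM to 12.1, 16.3 and 11.7 (log2 fold change 1.06 ± 0.14, adjusted p = 0.000838). Stx11 fell from 9.46, 10.2 and 11.4 FPKM to 5.01, 4.37 and 4.10 (log2 fold change -1.16 ± 0.13, adjusted p = 0.000374). The late endosomal Stx7 and Stx8 fell by 0.55 and 0.48, and Stx17, the autophagosomal syntaxin, by 0.63. Of 5 VAMP genes 4 fell, and Vamp3 of recycling endosomes rose from 37.9, 41.1 and 35.4 FPKM to 65.9, 70.8 and 70.6 (log2 fold change 0.90 ± 0.08, adjusted p = 0.000136).

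Vamp8, the most abundant SNARE member in ID8 but not in KMF, where Vamp3 was higher, had 74.3, 76.9 and 70.0 FPKM in ID8 and 59.1, 53.5 and 62.5 in KMF (log2 fold change -0.30 ± 0.08, adjusted p = 0.0222). Its call was lost in 5 of 16 alternatives, among them without ID8 replicates 1 and 2 and KMF replicates 1 and 2, with adjusted p up to 0.102. Snap25 (chr2:136713453-136782428, plus strand), the plasma membrane SNARE of neurons, fell from 1.17, 0.891 and 1.35 FPKM to 0.295, 0.115 and 0.370 (log2 fold change -2.06 ± 0.39, adjusted p = 0.00408). Its ubiquitous relative Snap23 rose from 21.6, 19.6 and 23.1 FPKM to 23.9, 27.1 and 27.3 (log2 fold change 0.32 ± 0.09, adjusted p = 0.0196). Sec22b and Sec22c, SNARE-family proteins between the endoplasmic reticulum and the Golgi, rose by 0.56 and 0.41.

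All 4 synaptotagmins in the table, proteins that link membrane fusion to calcium or lipids, were lower, also without each library in turn. Syt9 (chr7:107370728-107548656, plus strand), a calcium sensor of regulated exocytosis, had 4.61, 4.53 and 6.08 FPKM in ID8 and 0.689, 1.36 and 0.678 in KMF, a log2 fold change of -2.45 ± 0.29 (adjusted p = 0.000456). Syt11, which does not bind calcium, had 3.59, 3.59 and 3.998 FPKM in ID8 and 1.53, 0.965 and 0.960 in KMF, a log2 fold change of -1.66 ± 0.21 (adjusted p = 0.000547). Syt12 had 8.87, 12.8 and 7.79 FPKM in ID8 and 5.79, 4.28 and 4.09 in KMF, a log2 fold change of -1.02 ± 0.23 (adjusted p = 0.00852). It shares 950 exonic bases with a gene on the opposite strand. Syt7, the calcium sensor of lysosome exocytosis, had 23, 36 and 20 counts in ID8 and 5, 1 and 0 in KMF. The log2 fold change was -3.60 ± 0.80 (adjusted p = 0.00877). Its log2 fold change was -5.45 without KMF replicate 1 and -2.87 without KMF replicate 3. The synaptotagmins thus moved against the synaptotagmin-like Rab27 effectors Sytl1 and Sytl2.

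Sorting nexins bind endosomal phosphoinositides, and 8 of 13 rose while 3 fell. With upper quartile scaling 6 were called higher and 4 lower. Snx7 had the largest rise, from 8.86, 11.6 and 9.60 FPKM to 25.1, 18.5 and 22.6 (log2 fold change 1.18 ± 0.15, adjusted p = 0.000649). Snx27, the cargo adaptor that works with retromer, rose by 0.56, and Snx25 by 1.05. Snx31 (chr15:36504062-36555573, minus strand), a close relative of Snx17 and Snx27, had 97, 82 and 50 counts in ID8 and 4, 1 and 0 in KMF. Its log2 fold change was -5.36 ± 0.68 (adjusted p = 0.000624), -6.95 without KMF replicate 1 and -4.62 without KMF replicate 3.

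Snx1 and Snx6 pair as membrane-bending dimers on endosomes, and they moved apart. Snx6 fell from 57.8, 57.8 and 59.3 FPKM to 37.4, 33.2 and 37.6 (log2 fold change -0.65 ± 0.07, adjusted p = 0.000345). Snx1 rose from 39.5, 41.6 and 42.0 FPKM to 45.7, 51.02 and 48.0 (log2 fold change 0.27 ± 0.07, adjusted p = 0.0198). In FPKM, Snx6 was above Snx1 in all ID8 libraries and below it in all KMF libraries. Vps35, the retromer core subunit that these dimers serve beside, had 92.4, 93.7 and 93.4 FPKM in ID8 and 70.1, 78.5 and 75.0 in KMF (log2 fold change -0.28 ± 0.07, adjusted p = 0.0142, and 0.0555 without KMF replicate 3).

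ESCRT complexes cut membranes at multivesicular endosomes and at the midbody of dividing cells. The 3 Chmp genes, ESCRT-III subunits, rose. Chmp5 went from 66.0, 71.3 and 88.9 FPKM to 165, 166 and 156 (log2 fold change 1.15 ± 0.11, adjusted p = 0.000178). Chmp4c, which times abscission in cell division, went from 1.81, 2.54 and 1.76 FPKM to 5.83, 5.22 and 5.30 (log2 fold change 1.46 ± 0.20, adjusted p = 0.000871). Chmp4c shares 330 exonic bases with another member, Snx16, on the opposite strand, which was higher by 0.56. Chmp6 rose by 0.33.

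The Vps37 paralogs, alternative subunits of ESCRT-I, split. Vps37d fell from 5.67, 4.61 and 4.90 FPKM to 3.24, 2.33 and 2.46 (log2 fold change -0.88 ± 0.20, adjusted p = 0.00905). Vps37c was lower by 0.25 (adjusted p = 0.0242), a call lost in 6 of 16 alternatives, 5 of them without a library and with adjusted p up to 0.0945. Vps37b rose from 32.4, 29.7 and 29.4 FPKM to 40.6, 37.2 and 37.4 (log2 fold change 0.37 ± 0.08, adjusted p = 0.00619). Its exons overlap 918 bases of Hip1r on the opposite strand, which itself was higher by 1.44.

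In clathrin-coated vesicles the light chains moved in opposite directions. Cltb (chr13:54592401-54611344, minus strand) rose from 27.8, 33.7 and 29.2 FPKM to 59.4, 57.1 and 51.4 (log2 fold change 0.93 ± 0.10, adjusted p = 0.000344). Clta (chr4:44004452-44032846, plus strand) fell from 112, 114 and 127 FPKM to 87.0, 90.0 and 95.5 (log2 fold change -0.34 ± 0.07, adjusted p = 0.00844). Cltb made up 20.4% ± 2.11 (SD, n = 3) of light-chain FPKM in ID8 and 38.1% ± 2.85 in KMF, and the highest ID8 share, 22.8%, lay below the lowest KMF share, 35.0%. In FPKM, Clta remained the more abundant light chain in every library. That order in KMF depends on the listed gene lengths, 3174 bases for Cltb and 1710 for Clta. In raw counts, KMF replicates 1 to 3 had 4443, 4188 and 5420 for Cltb and 3508, 3557 and 5424 for Clta.

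Among 9 adaptor subunits 4 rose and 5 fell. The small and medium subunits of AP-1 and AP-2, namely Ap1s1, Ap1s2, Ap2s1 and Ap2m1, rose with log2 fold changes from 0.36 to 1.07, also without each library in turn. The large beta subunits Ap1b1 and Ap2b1 fell by 0.43 and 0.33. Ap1s2 went from 2.18, 2.42 and 1.68 FPKM to 4.69, 4.38 and 3.82 (log2 fold change 1.07 ± 0.18, adjusted p = 0.00257), and its more abundant paralog Ap1s1 from 74.4, 80.1 and 77.2 to 106, 99.7 and 99.2 (log2 fold change 0.44 ± 0.07, adjusted p = 0.00222). Ap3m2, the medium subunit of AP-3 that is best known in neurons, fell from 3.78, 4.55 and 4.69 FPKM to 1.43, 1.31 and 1.88 (log2 fold change -1.45 ± 0.18, adjusted p = 0.000566). Thus subunits that assemble into 1 adaptor complex differed in direction.

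The 3 caveola genes read here, Cav1, Cav2 and Ehd2, rose, but this set was put together with their changes known. Cav1 (chr6:17306335-17341452, plus strand), the main coat protein of caveolae, rose from 49.4, 54.2 and 57.3 FPKM to 123.1, 109 and 89.2 (log2 fold change 1.04 ± 0.13, adjusted p = 0.000541). Cav2, its neighbour and partner, rose from 31.01, 35.8 and 40.99 FPKM to 65.2, 58.9 and 58.5 (log2 fold change 0.80 ± 0.11, adjusted p = 0.00088). Ehd2 (chr7:15946977-15967567, minus strand), an ATPase at the caveolar neck, rose from 18.7, 19.0 and 17.0 FPKM to 43.5, 43.0 and 39.5 (log2 fold change 1.24 ± 0.08, adjusted p = 3.74e-05). Its paralog Ehd3 (chr17:73804841-73832093, plus strand), which works on recycling endosomes, had 181, 165 and 150 counts in ID8 and 1, 0 and 0 in KMF. The ratio of ID8 to KMF was 499.9, with an exact counting interval from 89.3 to 19783. The pair was thus at 17.0 FPKM or more for Ehd2 in all libraries, while Ehd3 was near 0 in KMF.

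**Figure D4:**
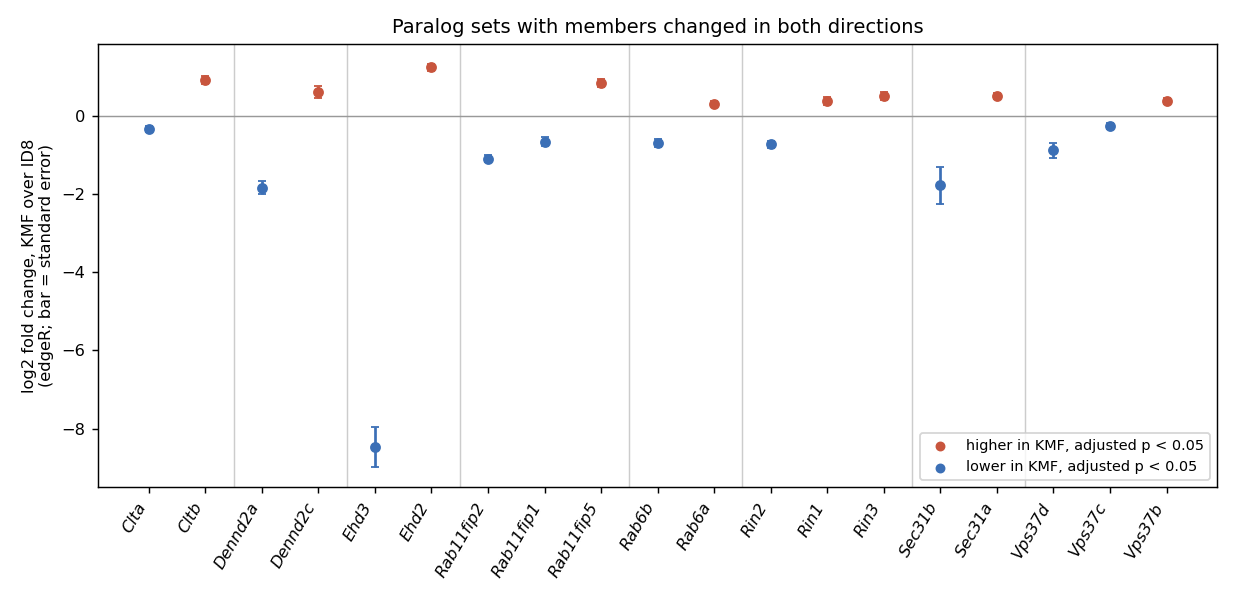
Log2 fold change of KMF over ID8 (y axis) for fitted genes of the paralog sets that hold called members in both directions (x axis, sets parted by grey lines). Points are edgeR estimates, bars are standard errors, and colour gives the direction of the call. The gap is largest in the Ehd pair, where the fitted value of Ehd3 rests on 1 KMF count.

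Paralog sets were taken from symbols that differ only in a final letter, or in a final number for a chosen group of small families such as Ehd, Rin and Rab11fip. Families outside that choice, such as Snap23 and Snap25, the sorting nexins and the VAMPs, were not counted. Of 20 such sets 8 held called genes in both directions, namely Clt, Ehd, Rab6, Rin, Rab11fip, Dennd2, Sec31 and Vps37. In 5 other sets several genes were called and all were higher, and in 2 all were lower. Whether unrelated genes would split as often was not tested. In the Rab4 pair Rab4a fell, and Rab4b had a log2 fold change of 1.44 ± 0.48 (adjusted p = 0.0506). Rab4b shares 1280 exonic bases with another gene model on the same strand, so its reads may be split.

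The V-ATPase pumps protons into endosomes and lysosomes, and most of its listed subunits fell while its accessory proteins rose. Of 8 V1 and V0 subunits 7 were lower, and Atp6v1b2 did not pass (log2 fold change -0.48 ± 0.17, adjusted p = 0.0583). Between 5 and 8 of the 8 were called lower when a library was left out, and 5 with the replicate number as a block. Atp6v0e2 (ENSMUSG00000039347, chr6:48537569-48541798, plus strand), an isoform of the small e subunit of the membrane sector, had 36.8, 35.9 and 31.4 FPKM in ID8 and 0.972, 1.04 and 0.657 in KMF. That was a 38.5-fold fall, with a log2 fold change of -5.27 ± 0.18 (adjusted p = 4.8e-06) and a wide gap between the lines.

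The peripheral stalk subunit Atp6v1g1 fell from 130, 121 and 146 FPKM to 66.3, 66.2 and 67.9 (log2 fold change -0.94 ± 0.08, adjusted p = 9.08e-05). Atp6v1g2, its neuronal isoform, fell from 5.15, 3.79 and 3.996 FPKM to 1.46, 1.70 and 1.70 (log2 fold change -1.37 ± 0.19, adjusted p = 0.00102), and made up 3.18% ± 0.589 of the pair in ID8 and 2.37% ± 0.181 in KMF. Atp6v1f, Atp6v0a1 and Atp6v0c fell by 0.55, 0.34 and 0.34 (adjusted p = 0.00128, 0.0483 and 0.00793), so Atp6v0a1 passed narrowly. Atp6v1e1, the most abundant pump subunit, was lower by 0.29 (adjusted p = 0.0408), a call lost in 5 of 16 alternatives, with adjusted p up to 0.141 without KMF replicate 2. The accessory Atp6ap2 (prorenin receptor) rose from 35.9, 38.8 and 38.1 FPKM to 53.1, 61.3 and 67.3 (log2 fold change 0.73 ± 0.09, adjusted p = 0.000676), and Atp6ap1 rose by 0.35 (adjusted p = 0.00661).

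Lamp1 (chr8:13159135-13175338, plus strand), the main glycoprotein of the lysosomal membrane, rose from 184, 203 and 191 FPKM to 254, 289 and 247 (log2 fold change 0.49 ± 0.09, adjusted p = 0.0038). It shares 249 exonic bases with Grtp1 on the opposite strand. Lysosomal genes are known to carry CACGTG letters read by TFEB and its relatives, within a longer element that holds TCACGTGA. The letters CACGTG were in promoter windows of 19 of 129 members, or 14.7%, beside 8.09% of all 27025 genes with a window, and TCACGTGA in 4.65% beside 1.12%. Per window, the shares over the whole table were 7.15% and 0.974%. Here too the genes with a window were not filtered for expression or gene type. Windows with TCACGTGA are a part of those with CACGTG, and both read the same on either strand. Of the 19 members 11 were higher, 6 lower and 2 did not pass. Among 9 V-ATPase and LAMP members with a window, Lamp1 alone held CACGTG. Its window (chr8:13158911-13159210, plus strand) is shown because it holds the letters 4 times, in capitals, from 61 to 15 bases before the start. The window of Atp6v0e2 (chr6:48537319-48537618, plus strand), the pump subunit with the largest fall, is shown beside it and holds none of the 3 searched motifs.
Lamp1: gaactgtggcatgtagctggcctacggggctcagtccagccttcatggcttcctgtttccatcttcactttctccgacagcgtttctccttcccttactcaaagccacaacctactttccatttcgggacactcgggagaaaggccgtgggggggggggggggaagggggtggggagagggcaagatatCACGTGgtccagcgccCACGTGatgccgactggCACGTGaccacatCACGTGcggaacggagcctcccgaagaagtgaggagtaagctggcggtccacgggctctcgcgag
Atp6v0e2: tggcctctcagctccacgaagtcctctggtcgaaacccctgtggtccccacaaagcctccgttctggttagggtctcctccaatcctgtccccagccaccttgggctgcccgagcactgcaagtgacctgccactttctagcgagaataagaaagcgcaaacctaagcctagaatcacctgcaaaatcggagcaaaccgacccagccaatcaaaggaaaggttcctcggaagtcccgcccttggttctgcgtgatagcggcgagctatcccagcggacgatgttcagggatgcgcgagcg

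The direction of members differed by chromosome. On chromosome 19, 13 of 14 called members were lower, among them Arl3, Exoc6, Syt7, Syt12, Vps51 and Stx3, and 26.8% of the other called genes there were higher. On chromosome 11 it was 13 of 16, with 27.5% of other called genes higher. On chromosome 3, 9 of 10 called members were higher, among them Sec24d, Sec24b, Chmp4c, Snx7 and Snx27, and 74.5% of other called genes were higher. On chromosome 8, 9 of 11 were lower beside 34.3% of other called genes higher, and on chromosome 5, 8 of 11 were higher beside 63.3%. On these 5 chromosomes the members leaned the same way as the other called genes. The X chromosome went the other way, with 5 of 6 called members higher beside 35.2% of other called genes, and on chromosome 17, 5 of 7 were lower where 49.4% of other called genes were higher. DNA copy number was not analysed here, and its part in these changes was not tested.

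The rest of the pathway was read from lists of genes that the name pattern does not take, and 92 of 225 such genes were in the table. Of 91 that could be fitted 44 were higher and 41 lower in KMF, beside 45.4% higher and 47.5% lower among all fitted genes. The single lists are short and were not tested as sets, so their counts are description only. Among 16 genes of clathrin and dynamin endocytosis 10 rose and 5 fell. Dnm1, the dynamin best known at synapses, rose from 1.16, 1.59 and 1.28 FPKM to 10.5, 12.1 and 9.96 (log2 fold change 3.05 ± 0.16), and Dnm2, the ubiquitous dynamin, rose by 0.87. Fcho1, which starts clathrin pits, rose from 1.26, 1.51 and 0.791 FPKM to 12.8, 14.4 and 13.3 (log2 fold change 3.55 ± 0.22). Pacsin1 had the largest rise of this list, 4.32, to at most 0.651 FPKM. Dnm3 fell by 4.12 from at most 0.300 FPKM, and Dab2, an endocytic adaptor, fell by 0.76.

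Of 12 cargo receptors 8 rose and 4 fell. The KDEL receptors, which return escaped proteins to the endoplasmic reticulum in COPI vesicles, all rose, with log2 fold changes of 0.38 for Kdelr1, 0.77 for Kdelr2 and 2.45 ± 0.26 for Kdelr3. Lman1, which exports glycoproteins in COPII vesicles, rose by 0.59. Sort1, the sortilin that carries hydrolases to lysosomes, fell from 34.0, 27.9 and 34.2 FPKM to 6.58, 7.43 and 10.4 (log2 fold change -1.93 ± 0.17). Of its relatives, Sorl1 rose by 1.08 and Sorcs2 by 1.38, and Sorcs1 fell by 4.33 from at most 1.04 FPKM.

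Of 20 lysosomal genes 13 fell and 6 rose, with a median log2 fold change of -0.51. Npc2, the soluble cholesterol carrier, fell from 167, 170 and 172 FPKM to 64.6, 59.2 and 68.8 (log2 fold change -1.36 ± 0.08), and Npc1, its membrane partner, fell by 1.20. The protease Ctsh fell by 1.90, the glucosidase Gaa by 0.86 and the saposin precursor Psap by 0.39. Tfeb, the regulator of lysosomal genes, had a log2 fold change of -0.40 ± 0.13 (adjusted p = 0.0509). Lamtor1, Lamtor3 and Lamtor5 of the Ragulator complex rose by 0.39, 0.79 and 0.24. The luminal hydrolase Asah1 rose as well, by 0.42.

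Of the remaining lists, 3 of 5 genes of Rab prenylation and cycling rose and 2 fell. Chml, the escort of Rabs to their prenyl transferase, rose by 1.13. Of 13 Arf exchange factors, GTPase-activating proteins and GGA adaptors 6 rose and 4 fell, with Adap1 higher by 2.91 and Gga2 by 0.94, while Psd4 fell by 3.54 from at most 0.551 FPKM and Asap3 by 0.92. Of 8 further SNARE and vesicle fusion genes 5 fell, among them Use1 by 0.68 and Vti1a by 0.49, and 3 rose, among them the COPII GTPase Sar1a by 0.23. Of 7 ESCRT partners 3 rose, with Ubap1 of ESCRT-I higher by 1.05, and 3 fell. Of 6 fitted genes of endosome fusion 3 rose and 3 fell, and of 4 WASH and Commander genes 2 rose and 2 fell.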

How the data were processed

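RNA from 3 ID8 and 3 KMF tumorsphere samples was enriched for poly-A, made into NEBNext Ultra libraries and sequenced as paired reads by a service provider. The study's methods name TopHat2 as the aligner, while the submitters' processing notes name CASAVA 1.8, STAR 2.5, DESeq2 and the mouse build mm10 (GRCm38). The counting tool, annotation release and strand setting are not given in the sources used here. The authors deposited raw counts of fragments per gene, not normalized, and FPKM, which the authors scaled to gene length and library total. Dividing the deposited counts by FPKM and length gave each library total. The authors' deposited p-values and fold changes were not used as results. The p-values served to find that the table was selected on them and that 17359 genes had been tested.

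Counts were fitted over the whole table with edgeR 4.0.16 (R 4.3.3), quasi-likelihood test, two-sided, TMM scaling, filterByExpr and no block, and p-values were adjusted by Benjamini-Hochberg over the 17359 genes. Called means an adjusted p under 0.05. Standard errors are the log2 fold change over the square root of its F statistic. Unlisted genes were not analysed here. Counts were simulated for 7320 genes, of which 200 changed by 1 on the log2 scale. The KMF against ID8 fit called 83% of these 200 and 12 unchanged genes. The simulation fitted 6945 genes, not 17359, and changed few of them, whereas 92.9% of fitted genes of the table were called. Power at the adjustment and share of changes reported here was not tested. FPKM served for levels, as mean ± SD. Libraries of 1 line differed by 19.4 to 37.1 times sampling noise in chi-square per degree of freedom, so none was treated as a repeat deposit of another, which does not show that they are biologically independent. Alternatives were DESeq2 1.42.0, library totals alone, upper quartile scaling, a minimum of 10 counts in every library, no filter, limma 3.58.1 on log2(FPKM + 1) and log2(FPKM + 0.1), the replicate number as a block, adjustment over listed genes only, and each library left out. DESeq2 size factors in edgeR were added after seeing the data. The members, lists, subgroups and motifs were chosen with earlier results of these data known. Named genes were the 12 largest called rises and 12 largest called falls among members above 1 FPKM in a line, the largest rise, fall and level in each subgroup, and paralog sets called in both directions. Other members are given to describe each complex. Member lists were not tested as sets. A gene of the cargo receptor list is not reported here.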

Additional observations from a re-analysis of the deposited data

How the results depend on the processing

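No member changed direction in any alternative, and 114 of the 154 called members stayed called in every alternative that gave them a value. The number of members changed at least 2-fold went from 41 to 23 with limma on log2(FPKM + 1). That scale shrinks the change of low genes, but the test also differed and 155 members were fitted instead of 166. The parts of these choices in the drop were not tested. Leaving out 1 library at a time gave 120 to 145 members called and 35 to 41 changed at least 2-fold. DESeq2 called 159. Upper quartile scaling moved the median of all genes by -0.11 on the log2 scale and the share of called members that were higher from 46.8% to 39.2% (56 of 143), with that of all called genes moving from 48.9% to 41.5%. Of 71 named genes 16 lost their call in some alternative, 11 of them in one other than leaving out a library.

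The titles number the replicates 1 to 3 in both lines, but nothing says that a number marks a shared culture or day. Deviations of same-numbered libraries correlated at 0.0658, -0.0555 and 0.107, so the numbers were not taken as pairs, and not every library correlated best with its own number. With the replicate block 137 members were called, 66 higher and 71 lower, and 42 changed at least 2-fold. With 3 libraries per line, genes at a few counts, such as Rab37, Rab44, Snx31 and Syt7, have wide errors. Because the table lists only genes called by the authors on the same libraries, calls here are no independent evidence of a change.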

Other observations

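Further members showed changes that the account by complexes leaves out. Rab26os, an antisense RNA at chr17:24528248-24528744 on GRCm38, had 19.3, 13.3 and 18.3 FPKM in ID8 and 7.02, 5.99 and 6.69 in KMF, a log2 fold change of -1.33 ± 0.20 (edgeR adjusted p = 0.00144). Among less known Rabs, Rab36 fell by 0.92 (edgeR adjusted p = 0.00906), Rab20 by 0.64 (0.037), Rab2b by 0.48 (0.0428) and Rab34 by 0.44 (0.0131). Exons of Rab2b and Rab20 overlap other gene models on the opposite strand by 2469 and 356 bases. Such overlaps are given for some members only. Fewer Rabs were called lower whenever a library was left out. Rab28 rose by 0.58, Rab33b by 0.40 and Rab35 by 0.34. Among GTPase-activating proteins, Tbc1d9 fell by 1.33, Tbc1d32 by 0.80 and Rabgap1l by 0.79. Tbc1d31, a centrosomal member, rose by 0.88, Tbc1d15 by 0.52 and Tbc1d10b by 0.43. Arl15 rose by 0.70. Snx30 fell by 0.88, while its relative Snx7 rose by 1.18, and Snx32 did not pass, with a log2 fold change of -0.70 ± 0.26 (edgeR adjusted p = 0.0734).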
